A study of Rattus norvegicus with 2 samples.

Results

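The 6 genes described here act at different points of the cell division cycle and of its arrest: the D-type cyclins Ccnd1 and Ccnd2, the mitotic genes Kif20a and Ube2c, and the stress-arrest genes Gadd45g and Pmaip1. They were picked by symbol from the 2325 rows of the deposited table, and all 6 were found. RNA sequencing was run on 1 library of rat mesenchymal stem cells from bone marrow (bmMSCs) collected 10 days after transfection with Pdx1 + Ngn3, transcription factors of the developing endocrine pancreas, and on 1 library of untransfected bmMSCs. Both came from Sprague-Dawley rats at passage 3 to 5, and bmMSCs are the plastic-adherent stromal cells of the marrow. The control did not go through transfection, so the introduced genes and the procedure cannot be told apart. The sources used here do not give the vector and promoter, the number of animals behind each library, or how long the control had been cultured.

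D-type cyclins are the regulatory subunits that switch on the kinases Cdk4 and Cdk6 in G1, and their transcription follows growth factor, matrix and Wnt signals. The kinases then inactivate the retinoblastoma protein, which frees E2F factors to turn on replication genes; mitotic genes such as Kif20a and Ube2c are transcribed later, in G2 and M. GADD45 proteins and Noxa, the product of Pmaip1, belong to the response to stress: the first bind stress kinases, the cyclin B kinase and the replication clamp, and Noxa antagonises the survival protein Mcl1.

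The total reads per library implied by the deposited values were 7415094 in the transfected and 7800831 in the untransfected library. A level is given as RPKM, reads per kilobase of the representative cDNA and per 1000000 reads of the library. Pdx1 itself had 565 reads in the transfected and 0 reads in the untransfected library. Fold changes are transfected over untransfected after division by these totals, with exact 95% intervals from the counts. With 1 library per condition the intervals cover counting error only, and no difference below has a replicate check or a p-value. The table holds only genes that had passed a change of 2-fold in the authors' own comparison, 1476 higher (63.5%) and 849 lower (36.5%) in the transfected library, with medians of 3.41-fold higher and 3.10-fold lower. No member could therefore be unchanged, and counts of directions are given beside these shares. The gene lists were drawn up with earlier results of these data known, so their counts describe the table and test nothing. Of 10 genes fixed as mesenchymal stem cell markers 6 were listed, 3 higher and 3 lower. Ly6e, 1 of the 3 higher, was not among the planned markers, and without it the higher would be fewer than the lower. Ly6e was 13.7-fold higher (269 RPKM in transfected and 19.7 RPKM in untransfected cells), Vcam1 9.62-fold higher and Pdgfra 2.58-fold higher. Thy1 was 3.41-fold lower (322 RPKM in transfected and 1101 RPKM in untransfected cells), Alcam 2.77-fold lower and Itgb1 2.04-fold lower (519 and 1057 RPKM).

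Both D-type cyclins were lower in the transfected library, Ccnd1 by more than Ccnd2. Ccnd1, cyclin D1, had 348 reads in transfected and 1762 reads in untransfected cells. Its level was 12.3 RPKM (interval 11.1 to 13.7) in transfected cells and 59.3 RPKM (56.6 to 62.1) in untransfected cells, which is 4.81-fold lower (4.29 to 5.42). This drop was larger than that of 73.4% of the 849 lower genes. Ccnd2, cyclin D2, had 92 reads in transfected and 196 reads in untransfected cells. Its level was 8.77 RPKM (7.07 to 10.8) in transfected cells and 17.8 RPKM (15.4 to 20.4) in untransfected cells, 2.03-fold lower (1.57 to 2.62). Ccnd2 sat at the edge of the authors' selection: only 19 of the 849 lower genes had a smaller change, and its interval reached below 2-fold. The whole interval of Ccnd1 lay past 2-fold, as it did for 552 of the 849 lower genes (23.7% of all rows).

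The share of reads that a gene takes within its own family needs no library total. Ccnd1 gave 79.1% of the reads of the 2 cyclins in transfected cells (exact interval 75.0 to 82.8%) and 90.0% in untransfected cells (88.6 to 91.3%). After division by cDNA length the same shares were 58.4% and 77.0%. The summed level of both cyclins was 21.1 RPKM in transfected and 77.1 RPKM in untransfected cells. The representative cDNAs differ in kind: that of Ccnd1 has 3809 bases, of which 23.3% are coding, whereas that of Ccnd2 has 1415 bases, of which 61.3% are coding. How much of each messenger's untranslated part was counted thus differs between the genes, which touches the levels. The fold change of either gene is untouched only if its messenger has the same ends in both libraries, which was not tested.

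**Figure D1:**
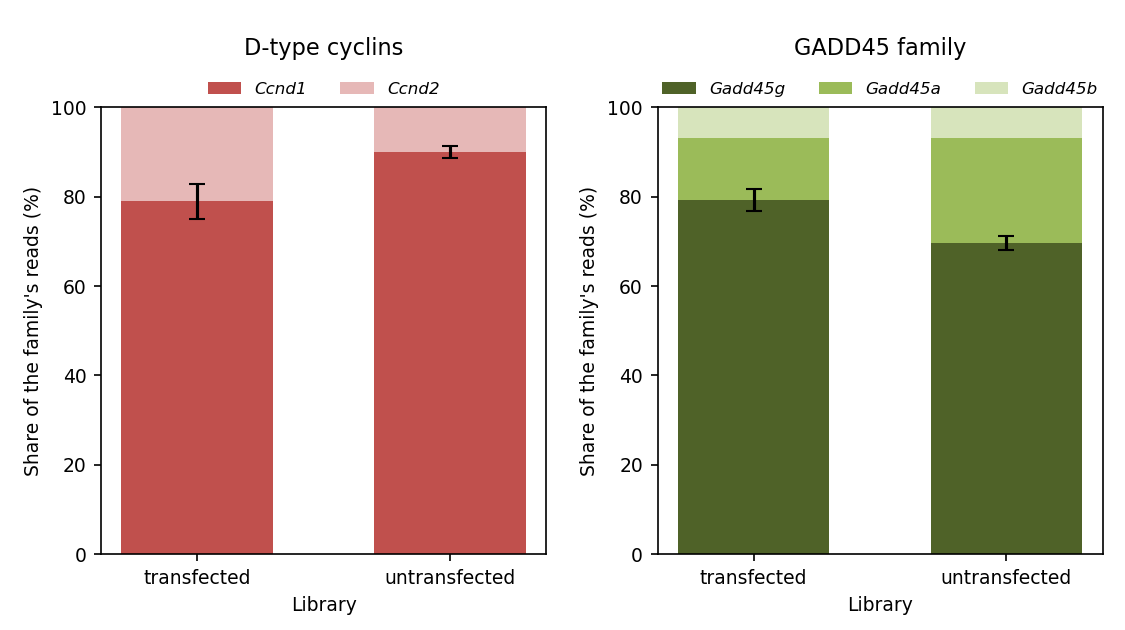
Share of reads (y axis, percent) that each gene takes within its group in the transfected and the untransfected library. The left panel holds the D-type cyclins Ccnd1 and Ccnd2 only, without Ccnd3, and the right panel the GADD45 family. Error bars are exact 95% intervals of the share of Ccnd1 or Gadd45g. Ccnd1 took 79.1% of the reads of Ccnd1 plus Ccnd2 in transfected and 90.0% in untransfected cells. Gadd45g took 79.2% and 69.6% of GADD45 reads.

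From the 12 fixed G1 cyclins, their kinases and activators, 3 were in the table, and all 3 were lower, against 36.5% of all rows; as 2 of the 3 are the cyclins themselves, the list adds 1 gene. That gene was Cdc25a, the phosphatase that activates cyclin-dependent kinases, at 4.45 RPKM in transfected and 11.8 RPKM in untransfected cells (2.66-fold lower, log2 ratio -1.41). The other members of that list, Cdk4, Cdk6, Ccnd3 and the E-type cyclins among them, were not analysed here, nor were any of the 8 fixed inhibitors of these kinases. Among 13 pocket proteins and E2F factors 2 were listed. The repressor E2f6 was 2.40-fold lower, at 28.3 RPKM in transfected and 67.8 RPKM in untransfected cells, and E2f7, an E2F repressor of late S phase and G2, was 4.56-fold higher on 39 transfected and 9 untransfected reads (interval 2.17 to 10.7). Of all genes with symbols that begin with Ccn, the others listed were Ccna2, the cyclin A2 of S phase and G2 (2.13-fold higher, but below 1 under median-of-ratios scaling), and Ccng2, cyclin G2, which is linked to leaving the cycle (3.52-fold higher, at 25.9 and 7.37 RPKM). Genes whose symbols begin with Cdk were 3, none of them a cyclin-dependent kinase: Cdk5rap1 (2.06-fold higher, but below 1 under median-of-ratios scaling), Cdkl2 (3.12-fold lower) and Cdkn2aip (3.34-fold lower).

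Both mitotic genes were higher in the transfected library by close to the 2-fold limit of the table, and both turned to slightly lower under median-of-ratios scaling. Kif20a, the kinesin that works at the central spindle and in cytokinesis, had 479 reads in transfected and 240 reads in untransfected cells. Its level was 21.9 RPKM (20.0 to 24.0) in transfected and 10.4 RPKM (9.15 to 11.8) in untransfected cells, 2.10-fold higher (1.79 to 2.46). Ube2c, the ubiquitin-conjugating enzyme that works with the anaphase-promoting complex, had 135 reads in transfected and 69 reads in untransfected cells. Its level was 23.6 RPKM (19.8 to 27.9) in transfected and 11.5 RPKM (8.92 to 14.5) in untransfected cells, 2.06-fold higher (1.53 to 2.79). Only 100 of the 1476 higher genes had a smaller change than Kif20a and 59 a smaller one than Ube2c. Both intervals reached below 2-fold, whereas 970 of the 1476 higher genes (41.7% of all rows) had a whole interval past 2-fold. In the GRCr8 annotation of RefSeq, Kif20a overlaps Cdc23, a subunit of the anaphase-promoting complex, and the protocol names no strand-marking step, so their reads may mix. The same annotation has 4 pseudogenes of Ube2c and the copy Ube2cl1, and how reads common to them were assigned is not known.

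Most other listed genes of mitosis had the same direction. In 3 lists, of mitotic cyclins and kinases, of spindle and kinetochore proteins and of the anaphase-promoting complex with its partners, 84 genes were fixed and 13 were listed. Of these 12 were higher (92.3%, against 63.5% of all rows), with a median log2 ratio of 1.20 against 1.24 over all rows, higher and lower together. The largest log2 ratio among them was 1.53, below the median of 1.77 over the higher rows. As the lists were chosen with earlier results known and joined after the data were seen, this count is descriptive only. The 12 include Kif20a and Ube2c themselves, which were picked beforehand, so only the other genes add to the count. Median-of-ratios scaling put 6 of the 13 above 1 and 7 below, where 52.1% of all rows were above 1. Ckap2, a spindle microtubule protein, was the most abundant, at 53.1 RPKM in transfected and 21.9 RPKM in untransfected cells (2.42-fold higher, 2.16 to 2.71). Mki67, which coats mitotic chromosomes and is the usual stain for cycling cells, was 2.48-fold higher (2.16 to 2.86). Under TMM scaling their log2 ratios were 0.54 for Mki67 and 0.50 for Ckap2. That both stayed above 1 was set by the selection, as all 1476 higher rows did so. Racgap1, the partner of the midzone kinesin in cytokinesis, was 2.42-fold higher and Nusap1, a spindle-associated protein, 2.30-fold higher, with Nusap1 turning just below 1 under median-of-ratios scaling. Pttg1, securin, which holds back separation of sister chromatids, was 2.89-fold higher on 85 transfected and 31 untransfected reads. The remaining spindle genes, named after their values were seen, were the kinetochore genes Nuf2 (2.88-fold), Ndc80 (2.39-fold) and Cenpf (2.04-fold) and the spindle pole gene Aspm (2.05-fold), all higher, though Cenpf and Aspm were below 1 under median-of-ratios scaling. The exception was Skp2, the F-box protein that marks the inhibitor p27 for destruction, which was 3.19-fold lower on 37 transfected and 124 untransfected reads.

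Replication genes were listed in 3 of 31 cases and all 3 were higher, against 63.5% of all rows, a count too small to set them apart. Under median-of-ratios scaling 2 of them fell below 1, and at 2-fold the count was 0 under TMM scaling and 0 when the whole interval had to pass 2-fold. Over all rows the higher genes at 2-fold fell from 1476 to 734 under TMM scaling and to 970 by the whole interval. The helicase subunits Mcm4 and Mcm2 had 12.8 and 9.35 RPKM in transfected cells, against 5.45 and 4.21 RPKM in untransfected cells. The third was Ccna2, which stands in the mitotic list too. In the table's own gene ontology column, 17 rows carry the term for M phase of the mitotic cycle, of which 12 were higher (70.6%, close to the 63.5% of all rows) and 5 lower; median-of-ratios scaling put 7 above 1 and 10 below. That term was looked up after the lists had been seen and includes neuronal tubulins such as Tubb3, so it is broader than the spindle list. The kinesins, by symbol, were 4 higher and 2 lower, close to the 63.5% higher of all rows, with Kif20a turning under median-of-ratios scaling. Besides Kif20a the higher ones were Kif4, a chromosome-bound mitotic kinesin (3.71-fold, 81 and 23 reads in transfected and untransfected cells), and Kif21b and Kif26b, which are not known as mitotic motors (2.94-fold and 3.26-fold); the lower ones were the cargo motors Kif5c (2.18-fold) and Kifc3 (2.37-fold). Besides Ube2c, 2 genes with the prefix Ube2 were listed, Ube2v2 (2.08-fold higher) and Ube2j1 of the endoplasmic reticulum (2.06-fold higher). With Ube2c, all 3 turned below 1 under median-of-ratios scaling.

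A promoter sequence from RefSeq (GRCr8) was matched for 3 of the 6 members, Kif20a, Gadd45g and Pmaip1. That of Kif20a is shown because promoters of mitotic genes are known in human and mouse cells for paired CCAAT boxes, bound by NF-Y, and a cell cycle homology region with the core TTTGAA or TTTAAA. The 250 bases before the start site, on the plus strand at chr18:26504172-26504421, have CCAAT (either strand, ATTGG on the other) and TTTAAA in capitals:
Kif20a: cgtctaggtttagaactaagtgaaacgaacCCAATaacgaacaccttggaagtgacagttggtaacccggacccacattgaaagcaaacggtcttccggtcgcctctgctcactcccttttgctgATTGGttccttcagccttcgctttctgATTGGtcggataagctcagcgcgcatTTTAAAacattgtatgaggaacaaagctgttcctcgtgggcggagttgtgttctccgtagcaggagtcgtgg

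The Kif20a window holds CCAAT 3 times, at -220 to -216 on the plus strand and at -125 to -121 and -98 to -94 on the minus strand, counted from the start site, and TTTAAA at -72 to -67. The matches do not overlap. Of 33469 promoter windows of equal length, 34.0% hold CCAAT on either strand, 9.42% hold it at least 2 times, and 12.3% hold TTTAAA. Of the 12 higher mitotic genes 9 had a window, and CCAAT occurred in 7 of these 9, at least 2 times in 6. Among the 1472 genes of the deposited table with a window, 30.8% held CCAAT and 9.24% held it at least 2 times. No CCAAT was found in the windows of Ndc80 and Nuf2. CCAAT was not limited to higher genes: all 3 GADD45 genes, which were lower, held it, 1 of them at least 2 times. The string TTTAAA was present in 4 of the 9 and TTTGAA in 4 of the 9, against 16.2% of all windows for TTTGAA. Kif20a is itself 1 of the 9 and stands in their counts for CCAAT and TTTAAA. The motifs were chosen with its sequence in view, so its matches were known beforehand and add nothing to these counts. A match is a string of letters, not a bound site.

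**Figure D2:**
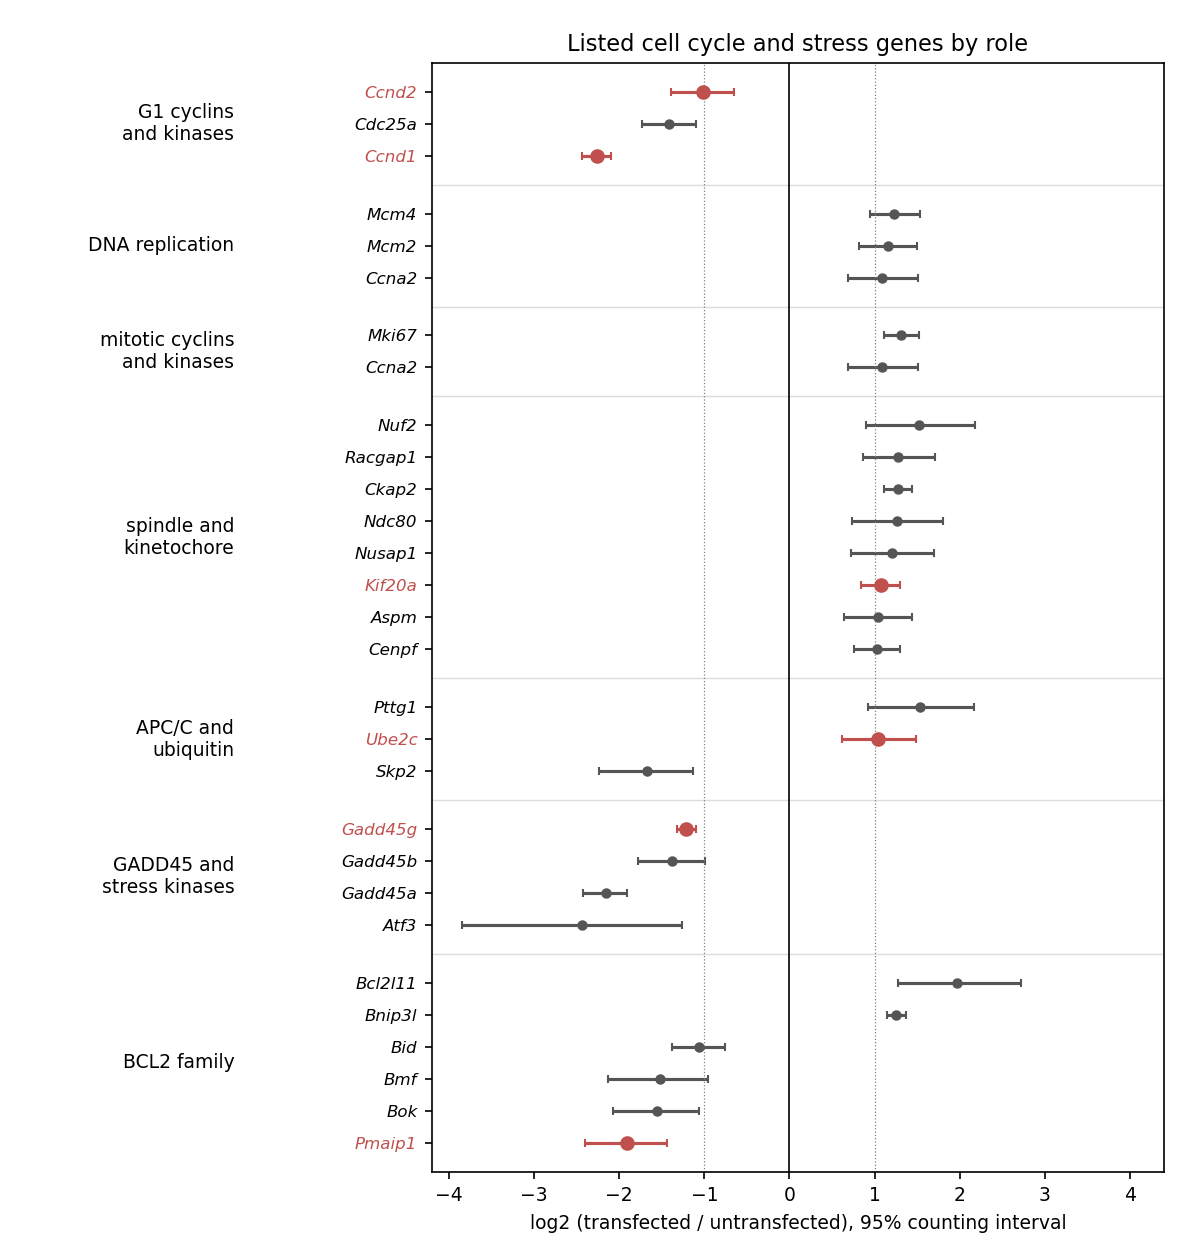
Log2 of transfected over untransfected reads after division by the library totals (x axis) for each listed gene (y axis), grouped by role; bars are exact 95% counting intervals, Ccnd1, Ccnd2, Kif20a, Ube2c, Gadd45g and Pmaip1 are red, and dotted lines mark 2-fold. All 8 spindle and kinetochore genes lie to the right of 0, although 4 of the 8 turn below 0 under median-of-ratios scaling. All 3 G1 genes lie to the left, as do all 4 listed genes of the GADD45 and stress kinase list. These 4 are the GADD45 genes and Atf3, and none is a stress kinase.

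The stress-arrest genes were both lower. Gadd45g, the most abundant of the 6 genes, had 869 reads in transfected and 2117 reads in untransfected cells. Its level was 105 RPKM (98.2 to 112) in transfected and 243 RPKM (233 to 254) in untransfected cells, 2.32-fold lower (2.14 to 2.51). Pmaip1 had 47 reads in transfected and 186 reads in untransfected cells. Its level was 19.9 RPKM (14.7 to 26.5) in transfected and 75.0 RPKM (64.6 to 86.6) in untransfected cells, 3.76-fold lower (2.72 to 5.30). The cDNA for Pmaip1 has only 318 bases, all of them coding, so reads from the rest of its messenger were not counted, and its level per kilobase rests on a short stretch.

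The whole GADD45 family was listed and lower. Gadd45a was 4.47-fold lower (3.75 to 5.36), at 16.4 RPKM in transfected and 73.2 RPKM in untransfected cells. Gadd45b, a target of NF-kB and TGF-beta signals, was 2.60-fold lower (1.99 to 3.43), at 6.64 RPKM in transfected and 17.3 RPKM in untransfected cells. The summed level of the 3 genes was 128 RPKM in transfected and 334 RPKM in untransfected cells. Within the family the make-up differed: Gadd45g gave 79.2% of its reads in transfected cells (76.7 to 81.6%) and 69.6% in untransfected cells (68.0 to 71.3%). Gadd45a gave 13.9% (11.9 to 16.0%) and 23.5% (22.0 to 25.1%), and Gadd45b 6.93% (5.50 to 8.60%) and 6.84% (5.97 to 7.80%). The fourth gene listed, of 17 in the list of GADD45 and stress kinase genes, was Atf3, a stress-induced transcription factor, with 7 reads in transfected and 40 reads in untransfected cells (5.43-fold lower, 2.41 to 14.4). The share of lower genes was thus 4 of 4, against 36.5% of all rows, with a median log2 ratio of -1.77. As Gadd45g is 1 of the 4 and was picked beforehand, the list adds only Gadd45a, Gadd45b and Atf3.

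The promoters of Gadd45g and Pmaip1 are shown to set them beside that of Kif20a. For Gadd45g (GRCr8, minus strand, chr17:13530352-13530601) the capitals mark CCAAT and TATAAA, the core of a TATA box. For Pmaip1 (GRCr8, plus strand, chr18:62255720-62255969) they mark TGACG, the core of the site for ATF and CREB factors, which reads CGTCA on the strand shown. Each motif was searched on both strands:
Gadd45g: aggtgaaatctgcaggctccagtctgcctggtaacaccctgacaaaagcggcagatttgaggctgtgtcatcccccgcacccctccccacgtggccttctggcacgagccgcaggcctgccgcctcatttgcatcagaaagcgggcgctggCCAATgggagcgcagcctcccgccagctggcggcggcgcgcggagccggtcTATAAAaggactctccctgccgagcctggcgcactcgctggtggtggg
Pmaip1: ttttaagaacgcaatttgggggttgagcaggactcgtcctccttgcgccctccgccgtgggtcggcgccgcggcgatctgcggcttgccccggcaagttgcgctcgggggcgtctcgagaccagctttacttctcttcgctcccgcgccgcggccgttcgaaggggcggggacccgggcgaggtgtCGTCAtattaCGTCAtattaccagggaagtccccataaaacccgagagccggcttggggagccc

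Gadd45g has 1 CCAAT at -99 to -95 and TATAAA at -48 to -43, and Pmaip1 has TGACG on the minus strand at -64 to -60 and at -54 to -50. None of these matches overlap. TATAAA occurred in 12.9% of all windows, TGACG in 18.2%, and TGACG at least 2 times in 3.98%. The G and C content was 66.0% for Gadd45g, 64.8% for Pmaip1 and 49.6% for Kif20a, against a mean of 52.3% over all windows. Neither Gadd45g nor Pmaip1 held TTTAAA or TTTGAA in these 250 bases.

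In the BCL2 family 2 genes were higher and 4 lower among 6 listed of 21, so that 66.7% were lower, against 36.5% of all rows. Pmaip1, picked beforehand, is 1 of the 4. Beside Pmaip1, the lower ones were other death-promoting members: Bok (2.94-fold lower), the BH3-only gene Bmf (2.88-fold) and Bid (2.09-fold, at 8.55 RPKM in transfected and 17.9 RPKM in untransfected cells). Another BH3-only gene went the other way: Bcl2l11, which encodes Bim, was 3.92-fold higher (2.43 to 6.60), at 18.7 RPKM in transfected and 4.77 RPKM in untransfected cells. Bnip3l, a mitophagy receptor, was 2.39-fold higher, at 89.9 and 37.6 RPKM. Bcl2l13, found by its prefix, was 2.55-fold higher. Bcl2l11 and Pmaip1, both BH3-only genes, thus had opposite directions. In the ontology column, 9 rows carry the term for induction of apoptosis, of which 3 were higher (33.3%, against 63.5% of all rows) and 6 lower, Pmaip1 among them. The term for response to ionizing radiation, shared by Ccnd1 and Pmaip1, had 6 higher (54.5%) and 5 lower of 11. The term for regulation of cyclin-dependent kinase activity, shared by the 2 D-type cyclins, had 3 higher and 3 lower of 6, of which 1 was above 1 under median-of-ratios scaling.

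**Figure D3:**
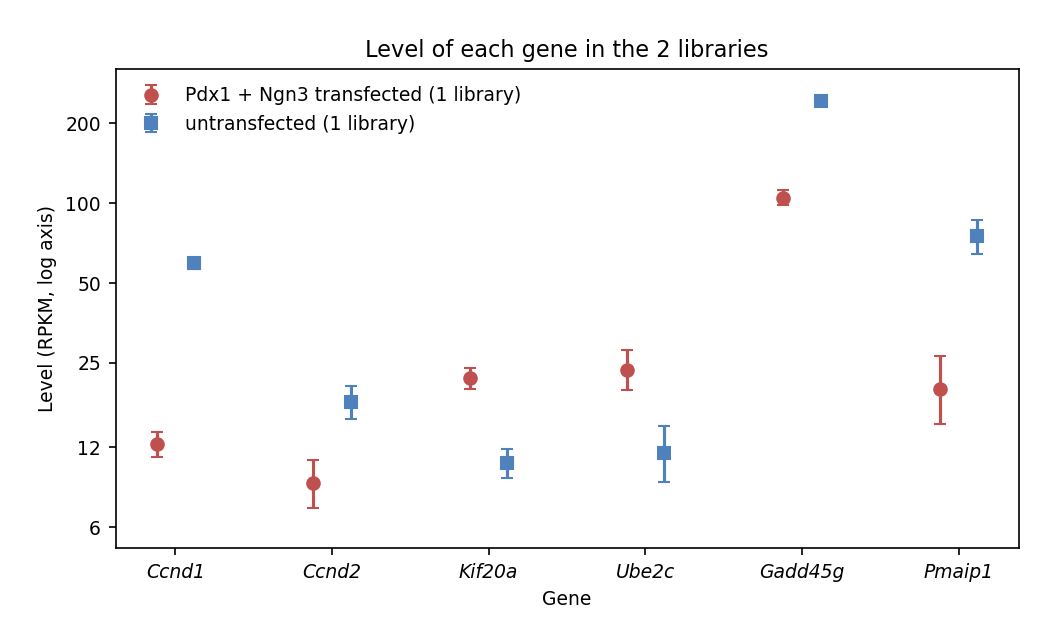
Level in RPKM (log axis) of each gene in the transfected library (circles, left) and the untransfected library (squares, right), 1 library each; bars are exact Poisson 95% intervals of the counts. Kif20a and Ube2c lie at 21.9 and 23.6 RPKM in transfected cells, above Ccnd1 at 12.3 and Ccnd2 at 8.77, and below both cyclins in untransfected cells.

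Set in order of level per length, the genes ranked differently in the libraries. In transfected cells Gadd45g (105 RPKM) was followed by Ube2c, Kif20a and Pmaip1, whose neighbouring intervals overlapped, and then by Ccnd1 and Ccnd2, which stood apart from their neighbours. In untransfected cells the order was Gadd45g, Pmaip1, Ccnd1 and Ccnd2, each apart from the next, and then Ube2c and Kif20a, whose intervals overlapped. The cyclins thus stood above the mitotic genes in untransfected cells and below them in transfected cells. These orders use the cDNA lengths of the table, with the differences in coverage of the messenger given above.

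Differences in response between members can be had without any library total, from the ratio of 2 genes' reads in each library. All 15 pairs were compared. For each Kif20a read there were fewer cyclin D1 reads in transfected cells: the ratio of Kif20a to Ccnd1 reads was 1.38 in transfected and 0.136 in untransfected cells, a 10.1-fold difference (exact interval 8.29 to 12.3). The ratio of Ube2c to Ccnd1 reads was 0.388 in transfected and 0.0392 in untransfected cells, a 9.91-fold difference (7.18 to 13.7). Because the authors' selection put every listed gene at 2-fold or more in its own direction, any higher gene over any lower gene had to differ by about 4-fold or more. That the 8 pairs of a higher with a lower member all had intervals that excluded 1 was therefore set by the selection, and the smallest of them, Ube2c over Ccnd2 at 4.17-fold (2.80 to 6.22), lay at that floor. These values hold under every scaling of the libraries, since the totals cancel.

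Among the lower members, the fold decrease of Ccnd1 was 2.38 times that of Ccnd2 (1.79 to 3.14) and 2.08 times that of Gadd45g (1.80 to 2.40). The fold decrease of Pmaip1 was 1.86 times that of Ccnd2 (1.22 to 2.85) and 1.62 times that of Gadd45g (1.16 to 2.31). For 3 pairs the interval included 1: Kif20a over Ube2c (1.02-fold, 0.722 to 1.43), Ccnd2 over Gadd45g (1.14-fold, 0.872 to 1.49) and Pmaip1 over Ccnd1 (1.28-fold, 0.890 to 1.81). These intervals bound the differences that the counts allow and do not show equal responses.

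**Figure D4:**
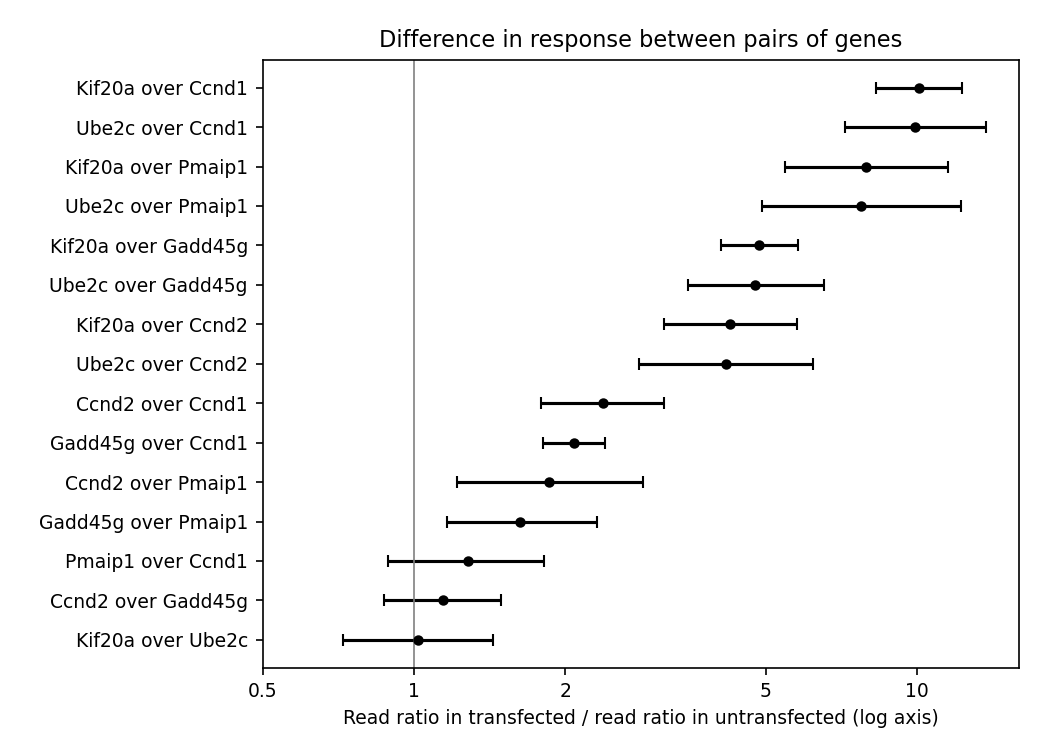
Ratio of the reads of 2 genes in the transfected library divided by the same ratio in the untransfected library (x axis, log scale) for the 15 pairs (y axis); points are the values and bars exact 95% counting intervals. The 8 pairs of a mitotic gene over a lower gene lie between 4.17 and 10.1, where the selection of the table fixes a floor of about 4, and the intervals of 3 other pairs include 1.

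Among the 6 genes, the choice of library scaling changed the sign of Kif20a and Ube2c only. Scaling by the column sums of the table added 0.10 to every log2 ratio. TMM and median-of-ratios factors, which assume that most genes do not change and were computed here on genes picked for change, shifted every log2 ratio by -0.78 and -1.20. Under TMM Kif20a and Ube2c had log2 ratios of 0.29 and 0.27. Under median-of-ratios scaling they had -0.13 and -0.16, against the median of all rows, which moved by the same -1.20. Ccnd1, Ccnd2, Gadd45g and Pmaip1 were lower under all 4 scalings. This was set by the selection at 2-fold, since no scaling raised a log2 ratio by more than 0.10. It holds for all 849 lower rows.

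**Figure D5:**
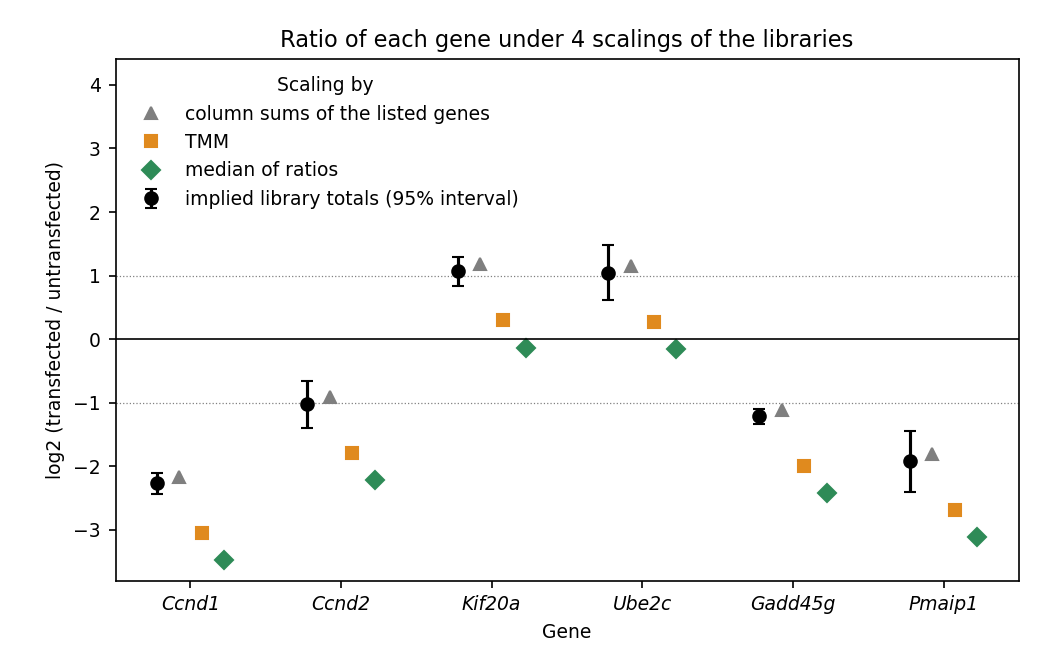
Log2 of transfected over untransfected for each of the 6 genes (y axis) under 4 scalings of the libraries; the bar on the value from implied totals is its exact 95% counting interval, and dotted lines mark 2-fold. Ccnd1, Ccnd2, Gadd45g and Pmaip1 stay below 0 throughout, as the selection at 2-fold fixes for every lower gene of the table. Kif20a and Ube2c lie near 1 with implied totals and at -0.13 and -0.16 with median-of-ratios scaling.

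The genes nearest to each member, by distance in log2 RPKM over the 2 libraries, were taken 2 at a time from all rows with a rat gene symbol. For Ccnd1 they were Glipr1 (distance 0.11) and LOC100363310 (0.11), and for Ccnd2 they were Bid (0.04), itself of the BCL2 list, and Zswim6 (0.05). Olfm1 (0.02) and Car11 (0.05) lay nearest to Kif20a, and Jak2 (0.09) and Ralgds (0.09) to Ube2c. For Gadd45g the nearest were Axl (0.08) and Lasp1 (0.10), and for Pmaip1 Stk38l (0.08) and Sc5dl (0.08). With 2 libraries such nearness means only a like level and a like ratio.

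Markers of other marrow cells were read beside these results. Of 16 blood cell markers 2 were listed, with a summed level of 3.34 RPKM in transfected and 9.22 RPKM in untransfected cells: Cd74 had 5 and 96 reads and the macrophage gene Cd68 26 and 5 reads in transfected and untransfected cells. Of 10 endothelial markers Egfl7 was listed, at 1.57 RPKM in transfected and 5.30 RPKM in untransfected cells. No listed marker was at 0, and Ptprc, Cd34 and Pecam1 were not analysed here. Their part in the values of the 6 genes was not tested. In bulk RNA, fewer cells in a cycle phase and less RNA per cell cannot be told apart.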

How the data were processed

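The members and gene lists were chosen with earlier results of these data known. Polyadenylated RNA was captured on oligo(dT) beads and read on an Illumina GA sequencer, per the labels' protocols, and the build rn4 comes from the submitters' processing notes; the aligner and counter were not given in the sources used here. The authors deposited raw read counts per gene and RPKM values computed from them, with 0.001 for a count of 0. Per the file headers they also gave a log2 ratio of the 2 RPKM values and a p-value with a false discovery rate. The p-value and false discovery rate were not used. The authors' log2 ratio was used to describe the selection and to pick the higher mitotic genes for the promoter counts. The deposited table holds only genes with an absolute log2 ratio of at least 1.00. They made up 20.2% of the transfected and 21.7% of the untransfected reads.

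Library totals were derived from counts, lengths and RPKM, and fitted all rows but 1. Folds carry Clopper-Pearson intervals, levels Poisson intervals and pairs conditional exact odds ratio intervals (SciPy 1.17.1), all at 95% and for counting error only. Without molecular identifiers, PCR copies may be counted more than once. A gene counts as higher or lower at 2-fold with an interval that excludes 1. Interval code was tested on simulated data. Scaling alternatives used edgeR 4.0.16 and DESeq2 1.42.0. Another list is not reported here. Of the 13 gene lists used, members in the table were named in full up to 6, otherwise the 4 with the highest mean RPKM, along with genes of the prefixes Ccn, Cdk, Kif, Gadd45, Ube2 and Bcl2 and the 2 genes nearest to each member.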

Additional observations from a re-analysis of the deposited data

How the results depend on the processing

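Under TMM scaling the log2 ratios of transfected over untransfected were -3.04 for Ccnd1, -1.79 for Ccnd2, 0.29 for Kif20a, 0.27 for Ube2c, -1.99 for Gadd45g and -2.69 for Pmaip1. Under median-of-ratios scaling they were -3.47, -2.22, -0.13, -0.16, -2.41 and -3.11 in that order, so Kif20a and Ube2c changed sign. Both scalings shift all genes alike by construction. Column sums, RPKM + 1, RPKM + 0.1 and deposited RPKM left each of the 6 ratios within its counting interval. RPKM + 1 also left the 15 pair differences within theirs. Divided by gene length, the share of Ccnd1 in Ccnd1 plus Ccnd2 was 58.4% in transfected and 77.0% in untransfected cells. That of Gadd45g in its family was 82.0% and 72.9%. At 2-fold, the higher spindle genes numbered 8 with implied totals, 0 under TMM and 0 under median-of-ratios scaling, and 1 when the whole interval had to pass 2-fold. Over all rows the higher genes also fell in number, being 1476, 734, 517 and 970 in that order. For the joined mitotic lists, an alternative chosen after seeing the data, the counts were 12, 0, 0 and 2. Higher BCL2 genes numbered 1 under TMM and 0 under median-of-ratios scaling, against 2, and lower ones 2 when the whole interval had to pass 2-fold, against 4. The lower genes of all rows numbered 552 by that last rule, against 849. A minimum of 30 reads and matching by RefSeq synonyms moved none of these list counts by over 1.5 times. No paired analysis was possible because each condition has 1 library, and for the same reason no library could be left out. Among the cell cycle and stress genes, depth limits Atf3 and E2f7 most, each with 10 or fewer reads in 1 library.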

Other observations

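Genes that mitogens induce within minutes to hours, several of which act upstream of cyclin D1, were higher about as often as all rows. Of 26 fixed genes 9 were listed, 6 higher (66.7%, against 63.5% of all rows) and 3 lower, like Ccnd1; median-of-ratios scaling put 5 above 1 and 4 below. Egr1, an early growth response factor, was 6.85-fold higher (5.85 to 8.07), at 50.2 RPKM in transfected and 7.33 RPKM in untransfected cells. The feedback inhibitors of ERK signalling Spry2 and Dusp6 were 3.73-fold and 2.25-fold higher, Dusp6 turning under median-of-ratios scaling. Fosl1, the AP-1 subunit Fra-1, was 3.29-fold lower, at 7.17 RPKM in transfected and 23.6 RPKM in untransfected cells.

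Chosen after their values were seen, the AP-1 gene Fos was 5.49-fold higher on 94 transfected and 18 untransfected reads, and the MYC genes went apart. Myc was 2.65-fold lower, at 3.55 RPKM in transfected and 9.42 RPKM in untransfected cells, and Mycn was 9.05-fold higher (5.29 to 16.6), at 6.68 RPKM in transfected and 0.738 RPKM in untransfected cells. Egr3 had the largest fold of the list, 24.7-fold higher, but on only 47 transfected and 2 untransfected reads (interval 6.47 to 210). Dusp5 was 2.22-fold lower. In this table the lower members of the list were thus Fosl1, Myc and Dusp5.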
